A study of Mus musculus with 16 samples.

Results

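Open chromatin was described around 7 genes of sterol synthesis, uptake and oxysterol formation in mouse bone marrow-derived macrophages (BMDM). Overlapping ATAC-seq peaks of 4 lists were merged into 37648 regions, and the 63 regions whose midpoint lay at most 100 kb from the start of transcription (TSS) of a member gene were taken. The members were Srebf2, Insig1, Sqle, Npc1, Soat1, Ch25h and Cyp27a1, and no region belonged to more than 1 of them. ATAC-seq reports where the Tn5 transposase can insert adaptors into accessible DNA. Peaks stood for accessible stretches that also carried enhancer histone marks in macrophages, because the deposited lists had been restricted in that way.

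The macrophages came from wild-type female C57BL/6J mice aged 8 to 10 weeks. Marrow was cultured with L-cell conditioned medium for 7 days and then kept without serum for 1 day. The Veh group received DMSO for 3 h and the T0 group received 500 nM of T0901317, a synthetic agonist of the liver X receptors (LXR), for 3 h. The LPS group received DMSO for 3 h and then 10 ng/mL lipopolysaccharide, the bacterial ligand of TLR4, for 2 h, and the T0-LPS group received 500 nM T0901317 for 3 h and then the same LPS treatment with the agonist still present. Each group held 4 libraries of 50000 cells, and all 4 were combined into 1 peak list. Groups with LPS were therefore also 2 h longer in culture, and the T0-LPS group had the agonist 2 h longer than the T0 group. The effect of LPS and that of the added time in culture or with the agonist cannot be told apart.

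Cells make cholesterol through a chain of enzymes whose genes are switched on by SREBP-2, the product of Srebf2, when sterols are scarce. INSIG-1 holds the SREBP complex in the endoplasmic reticulum when sterols are plentiful. Excess cholesterol is esterified, exported, or converted to oxysterols, and oxysterols are the natural ligands of LXR. Macrophages take up much cholesterol from lipoproteins and dead cells, so that release from lysosomes by NPC1 and storage as esters by SOAT1 are prominent in them.

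A value is given for each region in each list as a score percentile, the percentage of peaks in that list with a lower score. A percentile of 90 thus marks a strong peak and a percentile of 10 a weak one, relative to the list it came from. The lists held 35551 peaks (Veh), 29839 (T0), 33181 (LPS) and 31085 (T0-LPS), with median scores of 372, 305, 319 and 292. Depth per library was unknown, and the score moves with depth. Since each group gave 1 pooled list, no value had a replicate check, no test between groups was possible, and Wilson 95% intervals cover counting error only. The 6 macrophage marker genes examined (Csf1r, Spi1, Itgam, Adgre1, Cd68 and Mertk) each had a region within 1 kb of the TSS in all 4 lists. Of genes of other marrow cells, Cd3e, Ly6g and Gata1 had no such region in any list.

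The regions below are printed because they carried the largest differences between lists at Cyp27a1, Insig1 and Ch25h. A missing peak was counted as percentile 0, which gave the differences at Cyp27a1 and Insig1. Coordinates are those of GRCm38 (mm10), each sequence is the central 200 bases read on the forward strand, and capitals mark motif letters. In the Cyp27a1 region at chr1:74775812-74776104, in an intron of Wnt6, they mark the nuclear receptor half-site AGGTCA and an NF-kB match. In the Insig1 region at chr5:28064013-28064407, in an intron of the noncoding gene Gm26608, they mark a half-site read on the opposite strand. In the intergenic Ch25h region at chr19:34471759-34472101 they mark 2 matches to the AP-1 motif TGANTCA.
Cyp27a1 region at 62384 bp: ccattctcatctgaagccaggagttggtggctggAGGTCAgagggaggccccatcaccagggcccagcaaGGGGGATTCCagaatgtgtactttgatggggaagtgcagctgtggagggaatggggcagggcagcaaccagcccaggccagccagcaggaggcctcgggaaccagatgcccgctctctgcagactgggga
Insig1 region at -7153 bp: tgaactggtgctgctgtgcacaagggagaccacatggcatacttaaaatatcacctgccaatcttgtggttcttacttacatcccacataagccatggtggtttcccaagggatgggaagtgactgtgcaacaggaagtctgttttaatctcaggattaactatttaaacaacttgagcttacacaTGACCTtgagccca
Ch25h region at 3234 bp: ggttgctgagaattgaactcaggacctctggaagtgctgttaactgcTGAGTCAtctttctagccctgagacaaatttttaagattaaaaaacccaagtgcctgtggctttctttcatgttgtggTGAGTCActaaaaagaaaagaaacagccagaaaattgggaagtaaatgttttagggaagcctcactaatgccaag

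LXR binds DNA with RXR at 2 copies of AGGTCA in the same orientation separated by 4 bases, a repeat called DR4. Matches with up to 2 mismatched letters among the 12 were found in 4 of the 63 regions, and each is printed here with 20 bases on either side, on the strand that reads the repeat, with the half-sites in capitals. The 56 bases lie at chr1:74713217-74713272 for Cyp27a1 (forward strand), at chr5:28037115-28037170 (forward) and chr5:28070976-28071031 (reverse) for Insig1, and at chr19:34515863-34515918 (forward) for Ch25h, in an intron of Lipa.
Cyp27a1, DR4 match at -329 bp: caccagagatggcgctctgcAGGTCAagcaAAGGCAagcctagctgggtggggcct
Insig1, DR4 match at -34220 bp: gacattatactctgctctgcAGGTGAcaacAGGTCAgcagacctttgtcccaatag
Insig1, DR4 match at -359 bp: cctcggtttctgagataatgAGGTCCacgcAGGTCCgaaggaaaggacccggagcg
Ch25h, DR4 match at -40727 bp: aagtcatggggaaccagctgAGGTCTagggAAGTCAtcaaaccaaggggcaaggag
The Insig1 match at -34220 bp had 11 of 12 letters of the repeat and the other 3 had 10 of 12. A DR4 match lay in 6.35% of the regions of the 7 genes (95% interval 2.50 to 15.2%) and in 4.47% of all 37620 scanned regions, over the whole region. These matches are letters, not measured binding.

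Of the 63 regions, a peak was held by 61 (Veh), 48 (T0), 57 (LPS) and 49 (T0-LPS). All 4 lists held 43 of them (68.3%, against 70.2% of all regions). The number per gene ran from 5 at Sqle and at Insig1 to 17 at Ch25h. By annotation 26 lay in introns, 24 were intergenic, 9 fell in untranslated exons, 2 in coding exons and 2 in exons of noncoding genes. 13 regions lay within 1 kb of the TSS of another protein-coding gene, so that distance to a member does not assign a region to it.

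**Figure D1:**
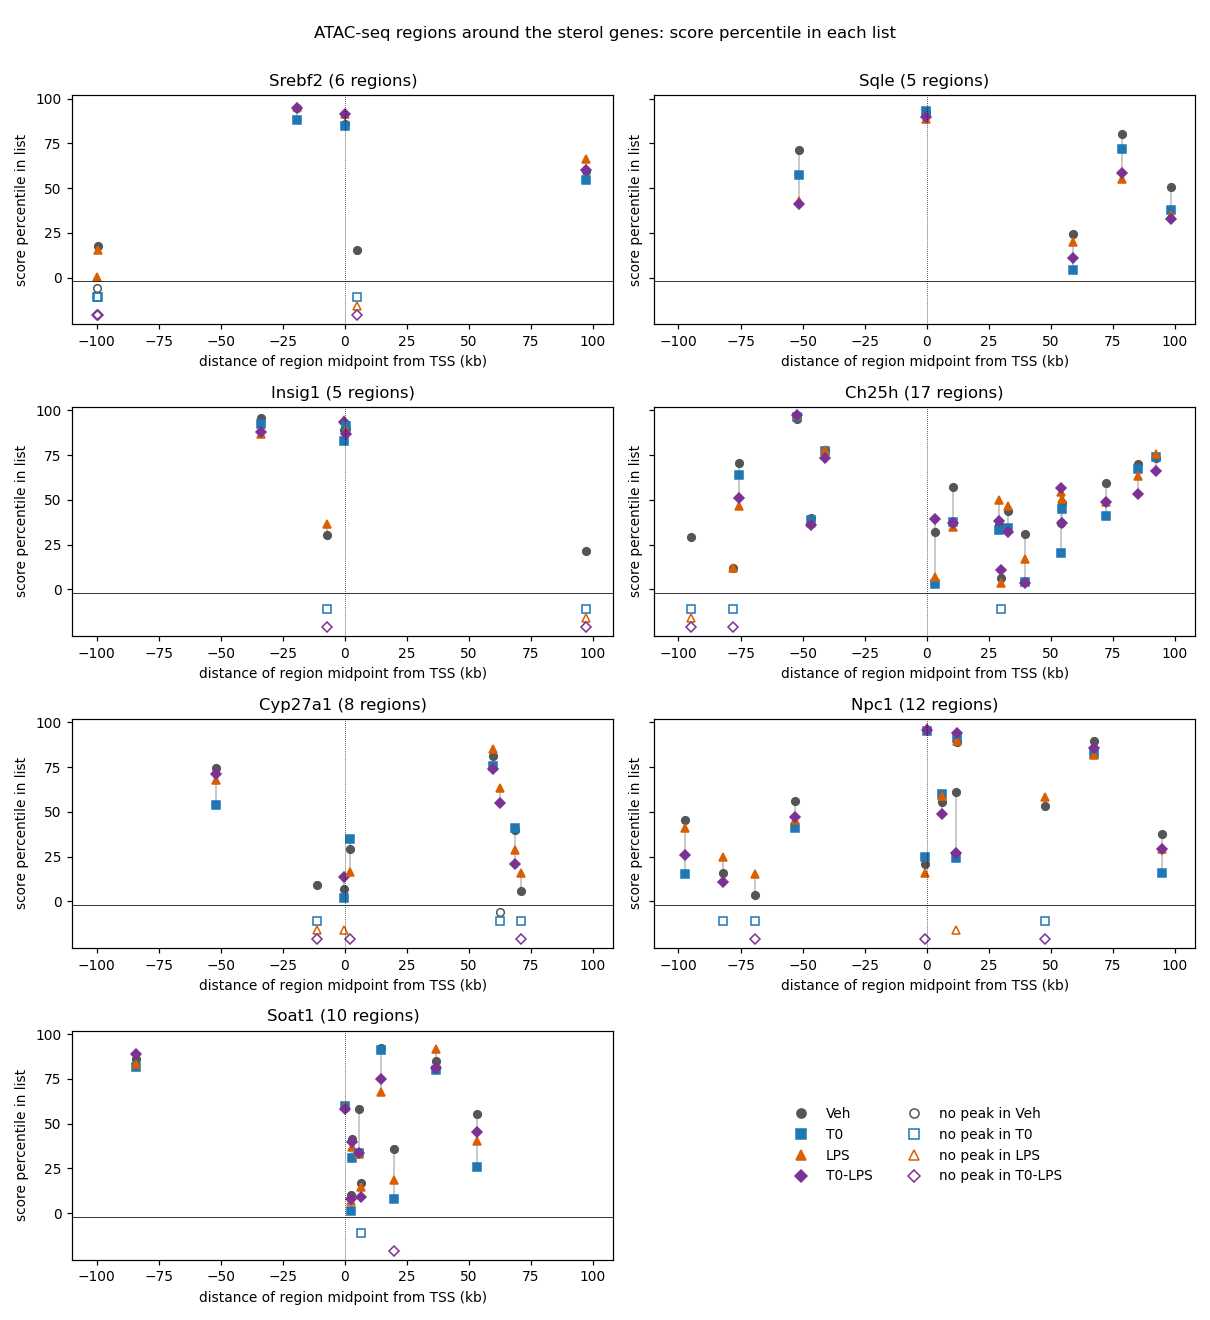
Each of the 63 regions is plotted by the distance of its midpoint from the TSS of its gene (kb, x axis) and its score percentile in each list (y axis, percent of peaks with a lower score). Filled symbols are peaks, open symbols under the line mark a list with no peak, and grey bars join the values of a region. The peaks nearest the TSS of Srebf2, Sqle, Insig1 and Npc1 lie above percentile 80 in all 4 lists, whereas Ch25h has no region within 3 kb of its TSS.

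Chromatin at the start sites was compared first. 6 of the 7 genes had a region within 1 kb of the TSS, 8 regions in all. The strongest was that of Npc1, the lysosomal cholesterol exporter, at -24 bp, with percentiles of 95.5 (Veh), 95 (T0), 96.6 (LPS) and 95.8 (T0-LPS). Sqle, which encodes squalene epoxidase, the first oxygen-requiring step of sterol synthesis, stood at 92.7, 93.1, 88.4 and 89.9 in the same order at -105 bp. Both regions kept a high rank in every list, with a range of at most 5 points.

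Srebf2 stood at 85.7 (Veh), 84.8 (T0), 91.6 (LPS) and 91.2 (T0-LPS) at -119 bp. The lists with LPS were thus the higher pair, and T0 differed from its control by under 1 point on either side. Insig1 had 2 such regions. The one at -163 bp stood at 89.1, 83.0, 94.7 and 93.3, lowest in T0 and highest in LPS, and the intronic one at 586 bp at 89.6, 91.2, 89.3 and 86.8. Soat1, which encodes the enzyme that esterifies cholesterol, had a middling start site region at -39 bp, with 58.6 (Veh), 60.1 (T0), 59.8 (LPS) and 58.1 (T0-LPS).

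Weak start site peaks differed more. Cyp27a1 encodes the mitochondrial sterol 27-hydroxylase, which makes 27-hydroxycholesterol. Its region at -337 bp, which holds the DR4 match printed above, stood at 7.0 in Veh (score 110), 1.7 in T0 (score 75) and 13.7 in T0-LPS (score 120). It had no peak in LPS. A second Npc1 region at -697 bp stood at 20.8 in Veh, 24.5 in T0 and 16.0 in LPS and had no peak in T0-LPS. Neither absent peak had room, that is, the numbering of the flanking peaks left no number for a called peak that the restriction to enhancers could have removed. Ch25h, which encodes cholesterol 25-hydroxylase, a single-exon gene induced by interferon and TLR signals in macrophages, had no region within 1 kb of its TSS in any list, and the nearest lay at 3234 bp.

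**Figure D2:**
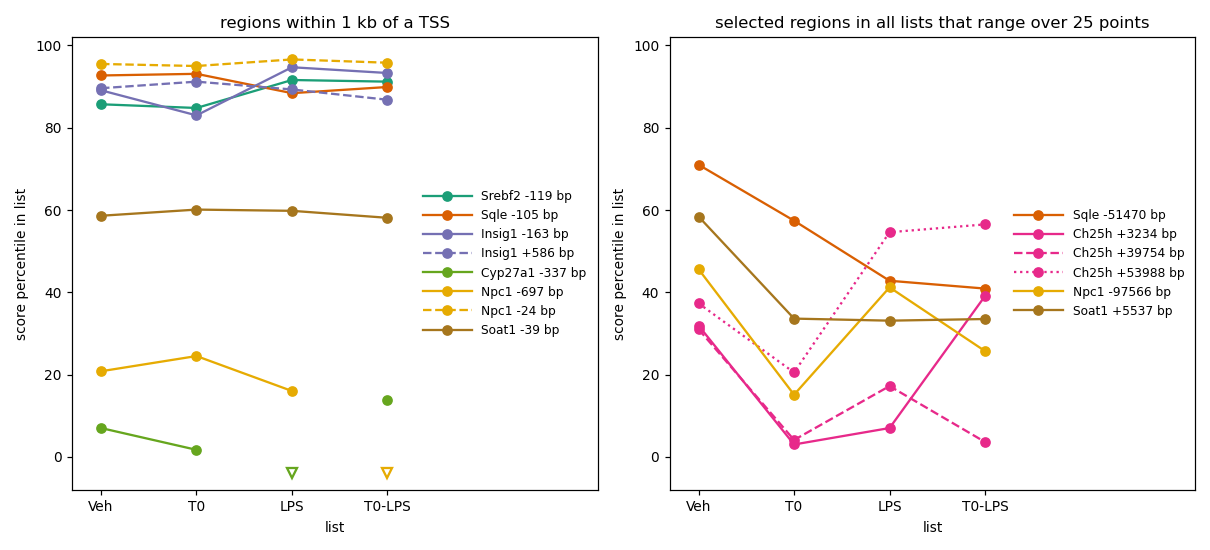
Score percentile (y axis) in the 4 lists (x axis) for the 8 regions within 1 kb of a member TSS (left) and for 6 of the 7 regions with a peak in all lists whose percentiles range over more than 25 points (right, 1 region is not reported here). Lines join the values of 1 region and have no meaning between lists, and open triangles mark a list with no peak. The start site regions of Npc1 (-24 bp), Sqle, Srebf2 and Soat1 range over at most 7 points, whereas Ch25h at 3234 bp stands at 31.9, 3.0, 7.0 and 39.1.

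T0 and Veh were compared to find the regions altered by the LXR agonist alone. Of the 61 regions of the 7 genes with a Veh peak, 13 (21.3%, interval 12.9 to 33.1%) had none in T0 and are called T0-closed. Over all regions with a Veh peak the share was 18.1%. None of the 48 regions with a T0 peak lacked one in Veh (T0-opened, interval 0 to 7.41%), against 0.729% of all regions. Every member but Sqle had a T0-closed region. There were 2 at Srebf2, 2 at Insig1, 3 at Ch25h, 2 at Cyp27a1, 3 at Npc1 and 1 at Soat1.

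The missing peaks were mostly weak. 11 of the 13 lay below percentile 30 of the Veh list, where 68.8% of 16 member regions (interval 44.4 to 85.8%) and 55.6% of all regions were T0-closed. At or above percentile 30 the shares were 4.44% of 45 member regions (interval 1.23 to 14.8%) and 2.33% of all regions. The strongest T0-closed region lay at 47576 bp from Npc1, in a coding exon of Rmc1. It stood at 53.1 in Veh and 58.2 in LPS and had no peak in T0 or T0-LPS. In both lists 2 numbers were missing between the flanking peaks, so a called peak may have been removed there. It was also the 1 T0-closed region at or above the median Veh score, and room was found at 5 of the 13. With every list reduced to the length of the T0 list, 6 of 52 member regions were T0-closed (11.5%, interval 5.40 to 23.0%), against 7.70% of all, and 2 of 48 T0-opened (4.17%, interval 1.15 to 14.0%), against 5.76%.

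In the 48 regions with peaks in both lists the percentile was lower in T0 in 38 (79.2%), against 77.1% of all shared regions. The median difference was -5.9 points for the members and -5.6 for all. The T0 list was shorter, and of the 6365 T0-closed regions of the series 5786 lay below percentile 30 of the Veh list. A list without such regions gives the remaining peaks lower percentiles. Ranked among the shared regions, the median differences were -1.8 and 0.1. Regions lower by more than 20 points numbered 10 of 48 (20.8%, interval 11.7 to 34.3%), against 10.4% of all shared regions, so the interval lay above the share of all. Ranked among the shared regions they numbered 2 (4.17%, interval 1.15 to 14.0%), against 2.42%. No member region was higher by more than 20 points (interval 0 to 7.41%), against 0.0762% of all.

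Of the 10 ranked in the whole lists, 3 were among the 9 shared regions of Npc1 and 3 among the 9 of Soat1. At Npc1 the intronic region at 11832 bp stood at 61.3 in Veh and 24.1 in T0, a difference of -37.2 points and the largest among the members. An adjacent intronic region at 12278 bp stood at 88.7 in Veh and 91.0 in T0, so neighbours under 1 kb apart differed in direction. Merging peaks up to 200 bp apart joined the region at 11832 bp to this stronger neighbour, which then gave the value. The difference of -37.2 points thus rests on keeping them apart. The Npc1 regions at -97566 bp, near the TSS of Lama3, and at 94870 bp, in Riok3, differed by -30.5 and -21.8 points.

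At Soat1 the regions lower by more than 20 points included those at 19756 bp (35.7 in Veh and 8.1 in T0) and at 5537 bp (58.4 and 33.6). Both lay in Soat1 introns, as did the region at 14465 bp, which stood at 92.3 in Veh and 91.0 in T0. In all, 7 of the 10 Soat1 regions lay within the gene, and 8 of the 9 shared ones were lower in T0 (88.9%, against 77.1% of all shared regions).

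At Ch25h the regions at 3234 bp (31.9 in Veh and 3.0 in T0) and 39754 bp (31 and 4.1) were lower by 28.9 and 26.9 points. The other 2 of the 10 were the Sqle region at 59094 bp beside the TSS of Washc5 (24.6 and 4.1) and the Cyp27a1 region at -51799 bp at the TSS of Ttll4 (74.2 and 53.9). Srebf2 and Insig1 had no shared region that differed by more than 20 points. The number of such regions per gene was 3 at Npc1, 3 at Soat1, 2 at Ch25h, 1 at Sqle and 1 at Cyp27a1.

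**Figure D3:**
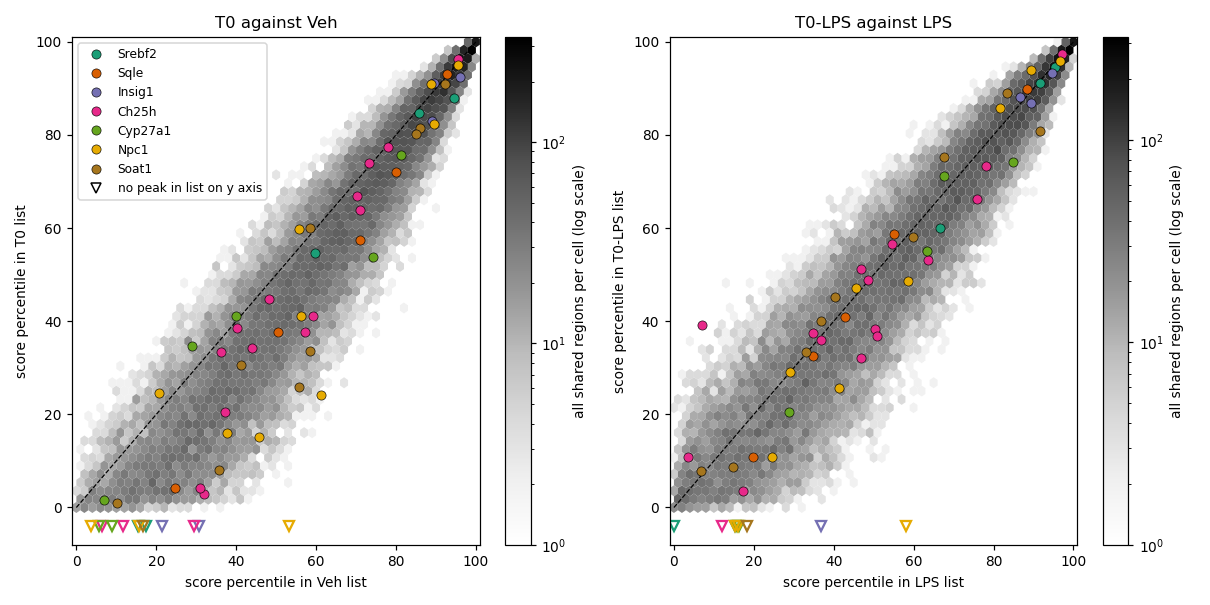
Score percentile in T0 against Veh (left) and in T0-LPS against LPS (right). Coloured points are the regions of the 7 genes, grey cells count all shared regions on a log scale, the dashed line marks equal percentiles and open triangles are regions with no peak in the list on the y axis. Of 48 shared member regions, 38 lie under the line on the left, and on the right Ch25h at 3234 bp lies 32.2 points above it, at 7.0 in LPS and 39.1 in T0-LPS.

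The comparison of LPS with Veh asked how TLR4 stimulation altered the same regions. Of 61 regions with a Veh peak, 6 (9.84%, interval 4.59 to 19.8%) had none in LPS, against 13.0% of all. Of 57 regions with an LPS peak, 2 (3.51%, interval 0.968 to 11.9%) had none in Veh, against 6.14% of all. In the 55 shared regions the median difference was -2.9 points, against -2.0 over all, and 32 were lower (58.2%, against 60.2% of all shared regions). Ranked among shared regions the members' median turned to 0.5. Regions lower by more than 20 points numbered 7 of 55 (12.7%, interval 6.30 to 24.0%), against 9.14% of all shared regions, and none was higher by more than 20 (interval 0 to 6.53%), against 3.92%.

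The stronger of the 2 LPS-opened regions was that at 62384 bp from Cyp27a1, in introns of Wnt6 and Gm29539, whose sequence with the half-site and NF-kB match is printed above. It had no peak in Veh or T0, stood at 63.3 in LPS (score 429) and at 55.1 in T0-LPS (score 326). In Veh 1 number was missing between the flanking peaks, and in T0 none was. The other LPS-opened region, in an intron of Snu13 at -99935 bp from Srebf2, had percentile 0.1. It lay 76 bp from a second Srebf2 region and was part of it when nearby peaks were merged.

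The strongest LPS-closed region was again the intronic Npc1 region at 11832 bp, with no peak and no room in LPS. When peaks up to 200 bp apart were merged, it joined the region at 12278 bp, at 89.3 in LPS, and was not LPS-closed. The other LPS-closed regions stood at percentile 29.5 or lower in Veh. They were the regions at 5020 bp of Srebf2, 97114 bp of Insig1, -95111 bp of Ch25h, and -11308 and -337 bp of Cyp27a1. All but the last were absent from all lists but Veh.

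All 5 Sqle regions were lower in LPS than in Veh, as were 60.2% of all shared regions, so a count of 5 sets Sqle little apart. The intergenic region at -51470 bp stood at 71.0 (Veh), 57.4 (T0), 42.8 (LPS) and 40.9 (T0-LPS), and the region at 78925 bp in an intron of Nsmce2 at 80.0, 72.1, 55.0 and 58.7. In both, Veh was the highest list and the lists with LPS were the lowest pair. The Soat1 intronic region at 14465 bp had the same order of pairs, at 92.3, 91.0, 67.7 and 75.2. The other regions lower by more than 20 points in LPS were the Soat1 region at 5537 bp and the Ch25h regions at 3234, 10473 and -75455 bp, the last of them 91 bp from the TSS of Ifit2, an interferon-induced gene. The region at -75455 bp held 3 NF-kB matches over its whole width, and those at 5537 and 3234 bp held AP-1 matches. Matches to these motifs thus lay in regions lower in LPS as well as in regions higher in LPS.

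The comparison of T0-LPS with LPS asked what the agonist did in stimulated cells. Of 57 regions with an LPS peak, 10 (17.5%, interval 9.82 to 29.4%) had none in T0-LPS, against 9.97% of all regions. The interval held the share of all regions, near its lower bound. Below percentile 30 of the LPS list the shares were 47.1% of 17 member regions (interval 26.2 to 69.0%) and 31.7% of all regions, and at or above it 5.00% of 40 (interval 1.38 to 16.5%) and 0.929%, a share under the lower bound that rests on 2 member regions. 1 of the 10 reached the median LPS score, the region at 47576 bp from Npc1. Of 49 regions with a T0-LPS peak, 2 (4.08%) had none in LPS, against 3.37%: the Npc1 region at 11832 bp and the Cyp27a1 region at -337 bp. The Npc1 region was not among them when peaks up to 200 bp apart were merged.

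In the 47 shared regions the median difference was -0.9 points, against -1.8 over all, and 1.0 when ranked among shared regions. None was lower by more than 20 points (interval 0 to 7.56%), against 4.36%, and 1 was higher (2.13%, interval 0.377 to 11.1%), against 0.929%. That region was the intergenic one at 3234 bp from Ch25h, with the 2 AP-1 matches printed above. Its percentile was 31.9 (Veh), 3.0 (T0), 7.0 (LPS) and 39.1 (T0-LPS), with scores of 241, 83, 103 and 227 and widths of 343, 188, 290 and 284 bp. It was thus higher in Veh and T0-LPS than in the lists with a single agent, and below the median score of every list.

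**Figure D4:**
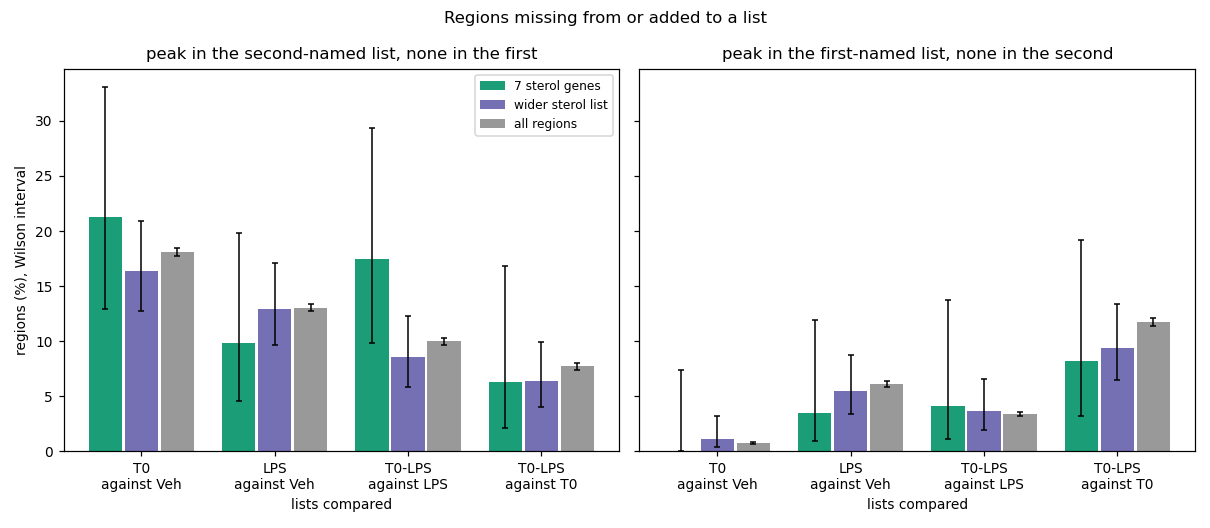
Percentage of regions (y axis) with a peak in 1 list and none in the other, for each pair of lists (x axis), with Wilson 95% intervals that cover counting error only. Bars are the regions of the 7 genes, of the wider sterol list without the regions of the 7 genes, and all regions, and 21.3%, 16.4% and 18.1% of them were T0-closed. The intervals of the 7 genes are wide and hold the share of all regions in each pair.

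A set of 6 regions had a peak in Veh and LPS and none in either list with T0, 10.9% of the 55 member regions with peaks in Veh and LPS (interval 5.10 to 21.8%), against 3.89% of all such regions. They were the regions at -99611 bp of Srebf2, at the TSS of Snu13, -7153 bp of Insig1, -77940 bp of Ch25h, 71056 bp of Cyp27a1, and -69147 and 47576 bp of Npc1. The Insig1 region, whose sequence with a half-site is printed above, stood at 30.6 in Veh and 36.7 in LPS. Below percentile 30 of the Veh list the share was 36.4% of 11 member regions (interval 15.2 to 64.6%), against 16.7% of all, and at or above it 4.55% of 44 (2 regions, interval 1.26 to 15.1%), against 0.531%. Room for a removed peak was found at 3 of the 6, those of Insig1 and Cyp27a1 and the Npc1 region at 47576 bp, and at none of the other 3. No member region had peaks in both lists with T0 and in neither list without it, against 0.0478% of all regions (18), too few to expect any among 63. T0 and T0-LPS were the shorter lists, and 3 of 48 member regions were of this kind when all lists were reduced to the length of the T0 list (6.25%, interval 2.15 to 16.8%), against 1.28% of all.

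T0-LPS and T0 were compared last. Of 48 regions with a T0 peak, 3 (6.25%) had none in T0-LPS, against 7.70% of all, and of 49 with a T0-LPS peak, 4 (8.16%) had none in T0, against 11.7%. The median difference over 45 shared regions was 0.8 points, against 0.6. Regions higher by more than 20 points numbered 2 (4.44%, interval 1.23 to 14.8%), against 7.76%, and lower 1 (2.22%, interval 0.393 to 11.6%), against 5.62%. The 2 higher ones lay at Ch25h, at 3234 bp and at 53988 bp, and the latter stood at 37.3 (Veh), 20.5 (T0), 54.6 (LPS) and 56.5 (T0-LPS). Unlike the region at 3234 bp, the region at 53988 bp was higher in both lists with LPS than in the lists without it. Merging peaks up to 200 bp apart joined it to the region at 54542 bp, at 44.7 in T0 and 36.9 in T0-LPS. The joined region takes 44.7 in T0 and 56.5 in T0-LPS and does not differ by more than 20 points. The lower one was the region at 68657 bp from Cyp27a1, in a coding exon of Wnt6, at 39.9, 41.1, 28.8 and 20.6.

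The Ch25h window gave the most regions. It is shared with Lipa, which encodes lysosomal acid lipase, and 12 of its 17 regions also lay within 100 kb of the Lipa TSS. The region 61 bp from that TSS, at -52249 bp from Ch25h, was among the strongest in the set, at 95.4 (Veh), 96.3 (T0), 97.2 (LPS) and 97.3 (T0-LPS). The 11 regions on the other side of Ch25h, from 3234 to 92360 bp past its TSS, were intergenic. The farthest of them stood at 73.2, 74.0, 75.8 and 66.3, and the region at 29334 bp, with 2 AP-1 matches, at 36.1, 33.3, 50.2 and 38.3, highest in LPS. The region at 3234 bp, also with 2 AP-1 matches, was lower in LPS than in Veh.

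Motif letters were compared between the central 200 bases of member regions and of all regions. The half-site AGGTCA was found in 10 of 63 (15.9%, interval 8.86 to 26.8%), against 11.9%, and AP-1 in 12 (19.0%, interval 11.2 to 30.4%), against 16.6%. The PU.1 letters GAGGAAGT were found in 5 (7.94%), against 8.55%, NF-kB in 2 (3.17%), against 4.30%, and DR4 in 2 (3.17%), against 1.94%. The sterol regulatory element letters TCACNCCAC, to which SREBP binds, were found in none of the 63 (interval 0 to 5.75%), against 0.853%, and in 1 when whole regions were scanned. Motifs were searched on both strands, and a half-site can be part of a DR4 match. Apart from DR4, with up to 2 mismatches, all letters had to match exactly. The lack of a match therefore does not show that a region or promoter has no sterol regulatory element. In the RefSeq promoters of Insig1, Srebf2, Ch25h, Cyp27a1 and Soat1 (GRCm38, 300 bases each) these letters gave 1 match, a half-site at Insig1, against 16.3% of 32851 promoters with a half-site.

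Among 47 other genes of the sterol pathway, 46 had a region within 100 kb of the TSS, and Vldlr had none. A region within 1 kb of the TSS was found at 39, in all 4 lists at 37. Of their 329 regions with a Veh peak, 55 (16.7%, interval 13.1 to 21.1%) at 30 genes were T0-closed, and of 277 with a T0 peak 3 at 3 genes were T0-opened. With LPS, 42 regions at 27 genes closed and 16 at 12 genes opened. In stimulated cells T0 left 26 of 303 (8.58%) without a peak, at 21 genes, and 10 regions at 10 genes had a peak only with T0. Each share was within 2 points of that of all regions, apart from the T0-LPS against T0 opened share (9.41% against 11.7%).

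Peaks at or above their list's median score were missing from a compared list at Mylip, Hsd3b7 and Scap, among others. At Mylip, a ubiquitin ligase gene and a known LXR target, the intergenic region at 66076 bp stood at 56.2 in Veh and 51.6 in T0 and had no peak, and no room, in LPS or T0-LPS. This region had peaks in both lists without LPS and in neither list with it.

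At Hsd3b7, an enzyme of bile acid synthesis, a region at -31551 bp in an untranslated exon of Fbxl19 stood at 69.8 in Veh and 60.0 in T0-LPS and had no peak in T0 or LPS, with room in both. At Scap, the sterol sensor that escorts SREBP, an intronic region at 15832 bp stood at 32.3 in Veh, 59.5 in LPS and 52.3 in T0-LPS, and had no peak in T0, where 1 number was missing.

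Start site profiles over the 4 lists were also compared with those of 37 genes of the wider list, by the Euclidean distance between percentiles. The nearest to Npc1 were Osbp, an oxysterol-binding transfer protein (0.8 points), and Mvk, mevalonate kinase (2.0). The nearest to Srebf2 were Sc5d (3.5) and Fdps (4.7), and the same 2 synthesis enzymes were nearest to Insig1 (7.0 and 7.1). Cyp51 (5.9) and Nceh1 (6.2) were nearest to Sqle, and Cyp46a1 (6.5) to Soat1. Ch25h and Cyp27a1 had no start site region in all 4 lists to compare. The likeness rests on 4 values per gene.

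Peaks were slightly narrower in T0 than in Veh, at the members and over all regions alike. Width grows with depth, which was unknown. In 47 member regions with a single peak in each list the median ratio of T0 to Veh width was 0.910, against 0.887 over all such regions. It was 0.941 for LPS to Veh, against 0.944, 0.974 for T0-LPS to LPS, against 0.964, and 1.03 for T0-LPS to T0, against 1.01.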

How the data were processed

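ATAC-seq was performed by the authors on 16 libraries of BMDM, 4 per treatment. Adaptors were trimmed with cutadapt, reads were aligned with Bowtie2 (mm10 is named in the submitters' processing notes) and duplicates were removed with SAMtools. The authors called peaks with MACS2 (q 0.001, no model, shift 88, extension 177 bp) on the 4 libraries of a condition together, and retained peaks that matched macrophage enhancers marked by H3K27ac or H3K4me2 in other macrophages. The deposited lists give a score per peak, the authors' peak caller score, with no unit in a header. It was used for ranks within a list only, with ties counted as 0.5. Read counts per library were not used here, so depth and its precision are unknown.

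Peaks overlapping by at least 1 bp were merged into regions, and a region took its highest-scoring peak. TSSs and annotations came from GENCODE vM21. Sequences were read from the GRCm38.p6 RefSeq genome, in which no peak on the 21 main chromosomes passed the chromosome end, and promoters from the RefSeq table of the same build, which matched 5 members. Python 3.11.15 with numpy 2.4.6, pysam 0.24.0 and matplotlib 3.10.9 was used, and the merging, ranking and motif search were checked on simulated data. Members, the 47 genes of the wider list and the comparisons were chosen with earlier results of these data known. Named genes of the wider list were those with a peak at or above the median score missing from a compared list, and the 2 with the most similar start site percentiles per member. No test was made because each group gave 1 list. The windows, overlap, merging, score minimum, list length, rank and transcript start were varied. Some results are not reported here.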

Additional observations from a re-analysis of the deposited data

Results flagged for a closer look

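Differences with T0 of more than 20 points in opposite directions without and with LPS were found at 2 regions. Smaller differences of opposite sign occurred elsewhere, as at Cyp27a1 (-51799 bp), with -20.4 and 3.7 points. How often either occurred over all regions was not counted. At Ch25h (3234 bp) the percentile differed by -28.9 points between T0 and Veh and by 32.2 between T0-LPS and LPS. Ranked among shared regions these values were -15.6 and 33.0, so the first did not exceed 20 points. In lists of equal length the first was -15.9 and the second had no value. At Npc1 (11832 bp) the differences were -37.2 and 26.9, the latter with the missing LPS peak counted as percentile 0. Merging peaks up to 200 bp apart joined this Npc1 region to the stronger one at 12278 bp, whose differences were 2.3 and 4.6. The difference between the 2 effects was not tested, since each group gave 1 list. The T0-LPS cells also had the agonist 2 h longer than the T0 cells.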

How the results depend on the processing

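Within 10 kb, where 17 regions remained, 3 were T0-closed, 2 LPS-closed, 0 LPS-opened, 3 T0-closed in LPS and 1 T0-opened in LPS, 1 opened in T0-LPS against T0 and 1 was absent from both T0 lists. Within 250 kb (129 regions) the counts were 27 T0-closed, 13 LPS-closed, 7 LPS-opened, 16 T0-closed in LPS and 12 opened in T0-LPS against T0. With a reciprocal overlap of 50%, 3 regions were T0-opened and 6 closed in T0-LPS against T0. Merging peaks up to 200 bp apart left 1 LPS-opened and 1 T0-opened-in-LPS region, and a score minimum of 100 gave 8 opened in T0-LPS against T0. Cutting every list to its 29839 highest-scoring peaks gave 6 T0-closed, 2 T0-opened, 5 LPS-opened and 5 T0-opened-in-LPS regions, and 3 regions absent from both T0 lists. Starts of any transcript gave the same counts. Shares over all regions were computed only in lists of equal length, for T0-closed, T0-opened and absent from both T0 lists, as given above. The other counts in this paragraph describe the members alone, and their changes cannot be set against those of all regions.

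The median difference for T0 against Veh was -1.8 points when ranked among shared regions and -1.9 in lists of equal length. That for LPS against Veh reversed to 0.5 under both, that for T0-LPS against LPS reversed to 1.0 and 0.4, and that for T0-LPS against T0 was 0.2 in lists of equal length. The medians thus depended on the ranking. Of 21 single differences over 20 points, 21 kept their direction among shared regions, with 11 still over 20. In lists of equal length 19 gave a value and kept their direction, with 12 over 20. Apart from the split at percentile 30, chosen after seeing the data, the alternatives were planned. No paired analysis was possible because peaks were called on pooled libraries. Weak peaks and unknown depth limit the presence counts.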
